A study of Mus musculus with 8 samples.

Results

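m6A peaks that lay wholly within coding sequence (CDS) were taken from the peak lists of C2C12 cells, an immortalized line of mouse myoblasts that was sampled while growing (growth medium, GM) and 3 days into differentiation medium (3d DM). A peak was counted here when the region label given with it was cds alone, so that it touched neither the 5′ UTR nor the 3′ UTR of the transcript it was listed for. Such CDS-only peaks made up 52975 of 105669 distinct peak positions (chromosome, start, end, strand and exon blocks) over the 4 lists, on 5669 of the 9153 genes with a peak, and 52945 of the positions carried no other label on any transcript. GM cells were kept in 10% fetal bovine serum and sampled at about 50% confluence. 3d DM cells had passed 90% confluence and then spent 3 days in 2% horse serum, so medium, cell density and time differ together and cannot be told apart. Each state had 2 libraries of RNA precipitated with an antibody against m6A (MeRIP-seq) and 2 input libraries, and each peak list came from 1 precipitated library set against its own input. No label says whether the replicates were separate cultures, and the spread between them may be technical.

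N6-methyladenosine is placed on mRNA by a nuclear complex around METTL3 and METTL14, which methylates adenosine within the sequence DRACH, where D is A, G or T (U in RNA), R is A or G, and H is A, C or T. It is best known from the surroundings of the stop codon, the 3′ UTR and long internal exons, and it is sparse near exon junctions, where the exon junction complex is deposited. Coding m6A is read by YTH domain proteins and has been tied to mRNA decay and to the pace of translation. In muscle cells, the exit from the cell cycle and the fusion into myotubes are accompanied by a wide change of the mRNA pool in which such sites are measured.

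The sequences below show the DRACH nearest to the middle of the bases shared by the lists at the CDS-only regions described later, with 10 bases on either side. The 5 letters in capitals are the DRACH, and T stands for U. Positions are in mm10 with the transcript's strand, and exons are numbered as in GENCODE release M21. The regions with the highest fold enrichment in all 4 lists come first.

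mt-Nd4 (chrM:10906-10930, + strand, the single exon of this mitochondrial gene): ccattattctAGACCcactaacaaa

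Zfp827 (chr8:79076307-79076331, + strand, exon 4 of 15, 481 nt long): acgccagagaGGACTggccagggtg

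Gcc1 (chr6:28418594-28418618, - strand, exon 3 of 3, 1472 nt long): tggacttcagGGACCgcacactgaa

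Zfp324 (chr7:12970579-12970603, + strand, exon 4 of 4, 3609 nt long): acccctgggaGAACTttccaaagca

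Carns1 (chr19:4166050-4166074, - strand, exon 10 of 10, 2241 nt long, bases shared by 3 of the 4 lists): agggtgaggcTGACCaccctggcat

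Setd1b (chr5:123152185-123152209, + strand, exon 6 of 16, 825 nt long): cttcccaccgGGACTgtttcctgtg

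The next 5 lie in the regions with the largest excess of fold enrichment in both GM lists, and the last 4 in those with the largest excess in both 3d DM lists.

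mt-Cytb (chrM:14939-14963, + strand, the single exon): accccatattAAACCcgaatgatat

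Zfp408 (chr2:91645509-91645533, - strand, exon 5 of 5, 2805 nt long): ccagctgcctGAACTgcggcgccat

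Mief2 (chr11:60731161-60731185, + strand, exon 4 of 4, 2036 nt long): ctccaggcagGGACTgctgagcacg

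Syt17 (chr7:118434059-118434083, - strand, exon 5 of 8, 620 nt long): gcctcctgccTGACCagaagaactc

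Ice1 (chr13:70605836-70605860, - strand, exon 13 of 19, 4698 nt long): cacagcgaagGGACActcgcttccc

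Odf2 (chr2:29902275-29902299, + strand, exon 6 of 21, 161 nt long, bases shared by 3 of the 4 lists): cggagcatgaGAACAcggtgctcag

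Mdc1 (chr17:35850679-35850703, + strand, exon 8 of 16, 711 nt long): gaaaagaggcTGACAaggatcttga

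Mprip (chr11:59760201-59760225, + strand, exon 15 of 23, 3804 nt long): ctggcagggaGGACCaggtacagac

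Camsap2 (chr1:136281306-136281330, - strand, exon 13 of 19, 2194 nt long): aagtatatacGGACCgagcaaagga

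All 15 lie in coding sequence. The exon lengths given are those of whole exons, which can include UTR. The bases shared at the regions of Cep162 and Nsd1 held no DRACH, and the listed transcript of Hspbap1 was not matched to the annotation, so none is printed for these genes. DRACH is frequent in coding sequence. It was found in 94.5% to 95.9% of the CDS-only positions of a list and in 94.2% to 95.6% of all windows of the same length in the CDS of the same transcripts. GGACH, the form that begins with GG, was held by 60.6% to 63.9% of the positions and by 56.8% to 60.9% of the windows.

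CDS-only positions numbered 15378 of 30412 for GM replicate 1 and 11813 of 25820 for GM replicate 2. For 3d DM they numbered 15378 of 30399 (replicate 1) and 11672 of 23040 (replicate 2). They thus made up 48.2% ± 3.40 of GM positions and 50.6% ± 0.051 of 3d DM positions (mean ± SD over 2 lists per state), and the difference was smaller than the GM spread (two-sided exact permutation test, p = 0.333, the smallest that 2 against 2 can give). It rests on GM replicate 2, the list with the lowest share (45.8%), without which GM minus 3d DM is -0.058 percentage points. The number of genes with a CDS-only peak was 3785 ± 467 in GM and 3639 ± 552 in 3d DM (exact permutation test, p = 0.667). Both replicate 1 lists were longer than both replicate 2 lists in positions and in genes, so the size of the lists followed the replicate number and not the state.

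CDS-only positions were shorter than those across the stop codon and longer than those in the 3′ UTR alone. Their median length was 208 to 240 nt over the 4 lists. It was 359 to 480 nt for positions that reach from the CDS into the 3′ UTR and 179 to 181 nt for those in the 3′ UTR alone. Of the CDS-only positions 44.1% to 50.0% lay in a single exon, beside 49.3% to 55.2% of those across the stop codon. The median fold enrichment, the authors' ratio of precipitated over input RNA, was 4.32 and 4.04 in the GM lists and 3.57 and 4.15 in the 3d DM lists. Positions across the stop codon had a higher median in each list (4.86, 4.26, 4.29 and 4.26), by 0.40 ± 0.28 on average (SD, n = 4). With 4 paired lists an exact sign-flip permutation test cannot go below p = 0.125, the value found. Among positions of 100 to 400 bases alone, the order turned and CDS-only positions were higher by 0.21 on average and in 3 of 4 lists (exact sign-flip permutation test, p = 0.25). Lengths within this range were not matched between the classes. Against 3′ UTR positions, CDS-only medians were 0.32 higher on average and higher in 3 of 4 lists, 3d DM replicate 1 being the exception (exact permutation p = 0.25). They were lower than those of positions touching the 5′ UTR in 4 of 4 lists, by 0.21 on average (exact permutation p = 0.125). At 100 to 400 bases that difference was 0.029 the other way.

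The DRACH sequence was denser inside CDS-only peaks than in the rest of the same coding sequences. It occurred 23.4 to 23.9 times per kb of RNA strand inside the peaks and 21 to 21.2 times per kb outside, a ratio of 1.11 to 1.13 that was above 1 in 4 of 4 lists (exact sign-flip permutation test, p = 0.125, the smallest possible). GGACH, which is part of DRACH, had a ratio of 1.10 to 1.20. The control pattern DRCAH, in which the central A and C trade places, had a ratio of 0.989 to 1.02 and was above 1 only in the replicate 1 lists.

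The 18 pentamers that make up DRACH were not equally denser. AGACA led with a ratio of 1.26 to 1.32, followed by AGACT (1.28 to 1.30), AAACA (1.18 to 1.31) and GGACA (1.18 to 1.29). GGACT, the form most cited for METTL3, stood at 1.08 to 1.17. Every one of the 6 pentamers that begin with T had a mean ratio below 1, from 0.87 for TAACC to 0.97 for TGACA, and each of those that begin with A or G had a mean ratio above 1. In the reading frame, the A of GGACH was the second base of its codon, as in the aspartate codon GAC after a G, in 58.0% to 60.0% of cases inside peaks and in 56.3% to 56.9% outside.

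Long coding exons held a larger share of the peak bases than of the coding sequence. Exons with at least 400 nt of coding sequence held 52.4% of the peak bases for GM replicate 1 and 55.9% for GM replicate 2. For 3d DM they held 52.6% (replicate 1) and 49.6% (replicate 2). They held only 34.5% to 37.1% of the bases of the same coding sequences. The excess of 14.9 to 18.8 percentage points was present in 4 of 4 lists (exact sign-flip permutation test, p = 0.125, the smallest possible), and was larger in both GM lists (17.9 and 18.8) than in both 3d DM lists (17.5 and 14.9; exact permutation p = 0.333, the smallest possible). That order did not hold with peaks of p at or below 1e-05 (15.6 and 16.8 against 17 and 13.4) or for exons of at least 1000 nt (11.4 and 10.2 against 11.8 and 8.35). Coverage did not climb smoothly with exon length. In GM replicate 1 it was 16.3% for exons under 100 nt, 15.5% from 100 nt, 16.3% from 200 nt, 33.3% from 400 nt and 32.9% from 1000 nt on. The same step at 400 nt was seen in 3d DM replicate 2, from 12.9% to 25.1%, and among internal exons that are wholly coding, from 16.9% to 38.0% in GM replicate 1.

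**Figure D1:**
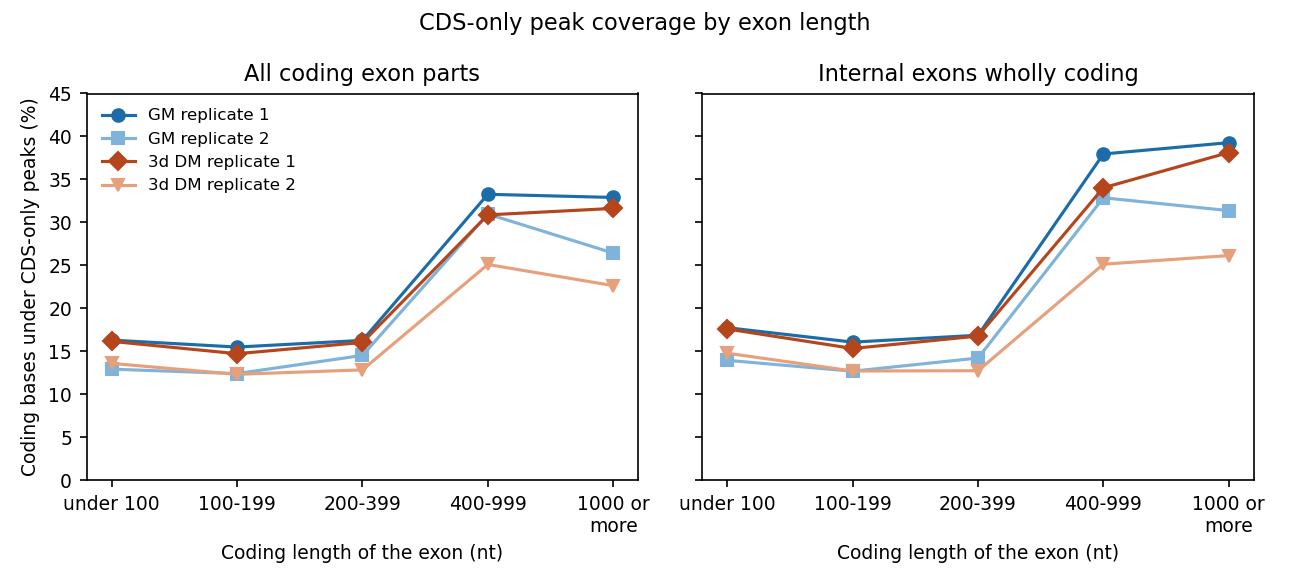
Share of coding bases under CDS-only peaks (percent, y axis) in 5 classes of exon length (nt, x axis), for all coding exon parts (left) and for internal exons that are wholly coding (right), with 1 line for each of the 4 peak lists. All lines are nearly flat below 400 nt, at 12.3% to 17.8%, and lie at 22.6% to 39.3% from 400 nt on.

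Along the CDS, peak midpoints were spread broadly, with fewer at both ends, where the rule itself bars a peak that reaches over the start or stop codon. With the CDS cut into 5 equal parts, the part nearest the start codon held 11.2% to 13.1% of the positions, the 3 middle parts 21.1% to 25.2% each, and the part nearest the stop codon 16.4% to 20.5%. That last part held 18% ± 2.32 of GM positions and 18.5% ± 2.83 of 3d DM positions (SD over 2 lists; exact permutation test, p = 0.667). Both replicate 2 lists (19.7% and 20.5%) were above both replicate 1 lists (16.4% and 16.5%), so here too the lists with the same number resembled each other more than those of the same state. The median distance from a peak to the end of the CDS was 823 to 961 nt.

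**Figure D2:**
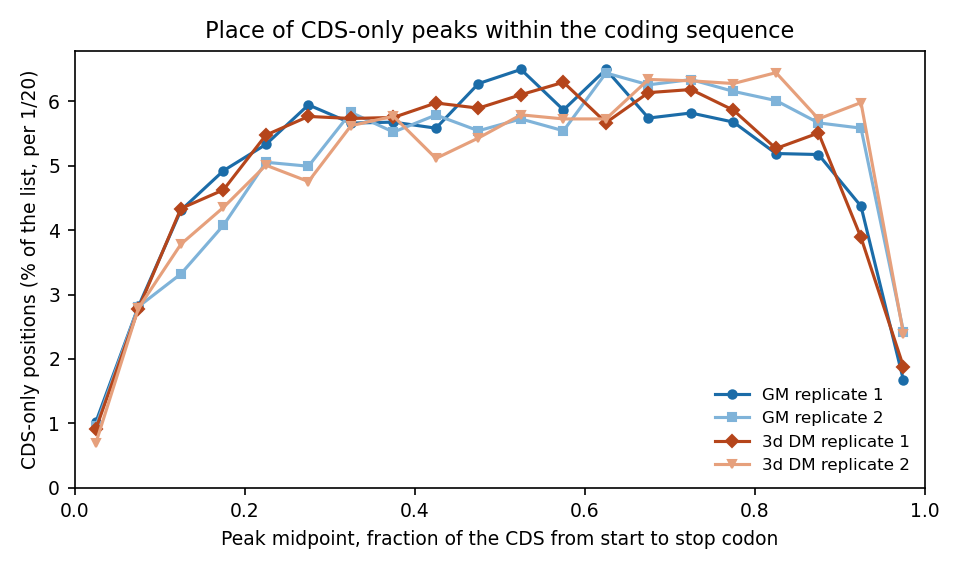
Share of the CDS-only positions of each list (percent, y axis) by the place of the peak midpoint in the CDS, from start to stop codon in 20 equal bins (x axis), with 1 line per list. The profile is broad, falls off at both ends, and the replicate 2 lists lie above the replicate 1 lists near the stop codon.

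To compare lists, positions that share at least 1 exon base on the same strand were merged into regions, and a region was kept as CDS-only when every line in it was labelled so. This gave 7462 CDS-only regions of 19683. Of these, 1598 were called in all 4 lists, 1036 in 3, 1419 in 2 and 3409 in a single list. Regions called in all 4 lists made up 21.4% of CDS-only regions, beside 47.5% of the 1562 regions that only ever spanned CDS and 3′ UTR and 18% of the 6240 that lay in the 3′ UTR alone (not tested). The share was 30.8% over all regions and 65.3% of the 3807 that mixed labels, into which a CDS-only position passes when it merges with one of another label. The recurrent regions were the stronger ones in each list, with a median fold of 4.47 to 5.69, while those called in a single list had 3.70 to 4.31. Regions called in both GM lists and in neither 3d DM list numbered 283 (3.79%, beside 3.83% of all regions), and the reverse 229 (3.07%, beside 2.70%). More regions, 655 of the 7462, were called in both replicate 1 lists and in neither replicate 2 list, and 48 in the reverse. Over all 19683 regions these counts were 1233 and 292. Across the 1598 regions, log2 fold correlated between lists with Pearson's r of 0.53 to 0.70, with the highest value between the replicate 1 lists of both states (regions are not independent replicates).

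The 8 CDS-only regions with the highest lowest fold over the lists were found on mt-Nd4, Cep162, Zfp827, Gcc1, Zfp324, Carns1, Setd1b and Nsd1. They were chosen for these values, which are given without a test. On mt-Nd4, a mitochondrially encoded subunit of respiratory complex I, the fold was 52.9 and 40.3 in GM against 98.9 and 59.1 in 3d DM, and the region spanned the whole transcript. Both 3d DM values were above both GM values.

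Among the others, Cep162, which encodes a centriole protein needed for cilia, had folds of 15.7 and 14.9 in GM against 18 and 14.2. Zfp827, a zinc finger gene, had 14 and 27.4 against 14.6 and 20. Gcc1, which encodes a golgin of the trans-Golgi network, had 18.4 and 18.8 against 12.7 and 23.4. With the mean over all positions in the region, the lowest fold was 6.2 for Gcc1 and 9.08 for Cep162. The states overlapped at all of these genes. Setd1b, a histone H3 lysine 4 methyltransferase, had 22.7 and 17.2 in GM against 11.1 and 12.5 in 3d DM, with no overlap between states. Nsd1, a histone H3 lysine 36 methyltransferase, had 20.1 and 11.0 against 14.8 and 15.0, the 3d DM values lying between the GM values. Carns1, which encodes carnosine synthase, an enzyme of skeletal muscle, had 11.4 and 14.1 in GM against 25.4 and 18.4 in 3d DM, again with no overlap. The zinc finger gene Zfp324 had 12.7 and 20.3 against 20.1 and 11.7. The spread between replicates at these regions was often as large as that between states.

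**Figure D3:**
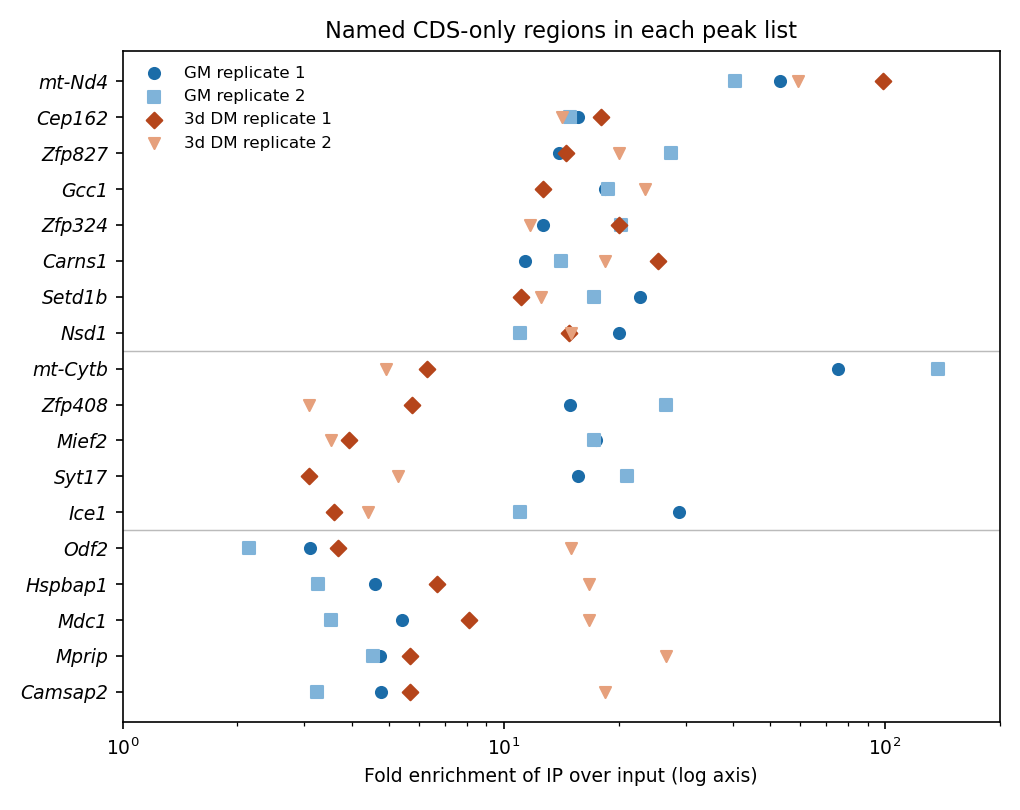
Fold enrichment (x axis, log scale) of the named CDS-only regions (rows) in each of the 4 lists, with 1 marker per list. The top block holds the 8 regions with the highest lowest fold, the middle block the 5 with the largest GM excess and the bottom block the 5 with the largest 3d DM excess, where 3d DM replicate 2 lies farthest to the right.

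No CDS-only region differed in fold enrichment between GM and 3d DM at an adjusted p under 0.05 (limma on log2 fold, fitted to the 6055 regions of all classes called in all 4 lists). The background was the same, with 0% of the 6055 called. At an unadjusted p under 0.05, 60 of the 1598 CDS-only regions (3.75%) and 211 of all 6055 (3.48%) passed, and limma without the intensity trend also called 0, with 69 CDS-only regions at an unadjusted p under 0.05. The median log2 difference, GM minus 3d DM, was 0.12 at CDS-only regions (quartiles -0.17 and 0.42) and 0.10 over all regions. Once each list was centred on its median, these became 0.0052 and -0.0065. State means differed by less than 2-fold at 1499 of the 1598 regions.

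Regions without overlap between states were counted as well. Both GM values were above both 3d DM values at 349 CDS-only regions (21.8%), beside 21.4% of all regions. Both 3d DM values were above both GM values at 122 (7.63%), beside 9.05% of all regions. After centring, the counts were 268 and 234 of 1598 (16.8% and 14.6%), beside 15.0% and 16.2% of all regions. The test had little power for smaller changes. In simulated data of 6055 regions, 118 of 200 planted log2 changes of 2 were called, and none of 200 planted log2 changes of 1.

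**Figure D4:**
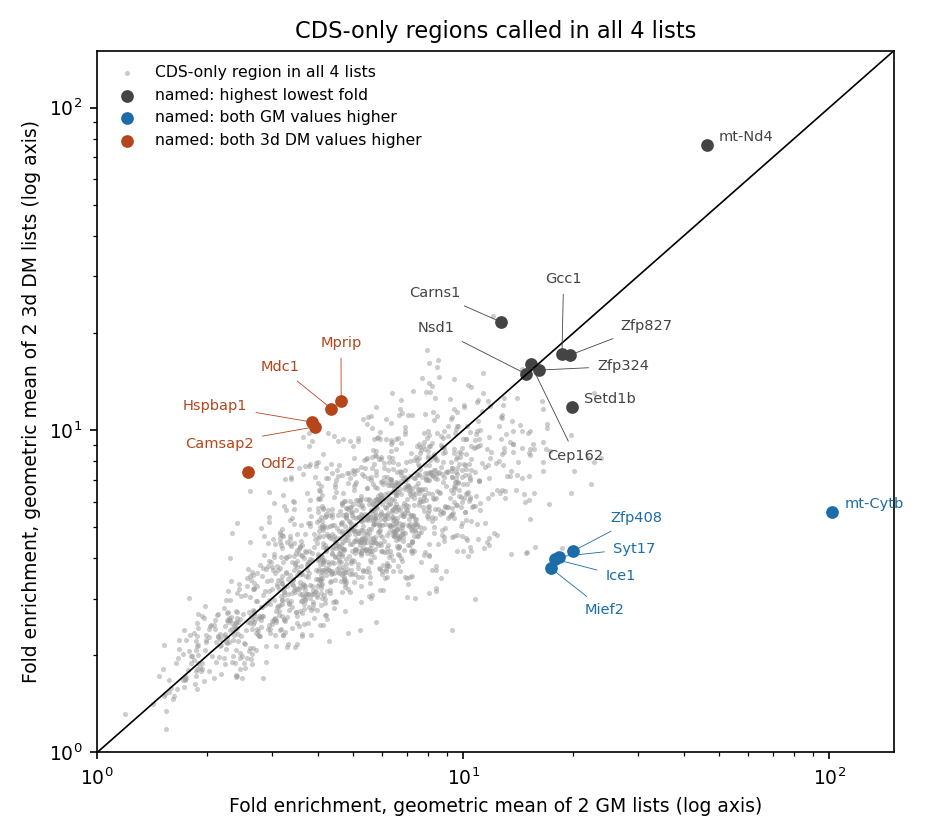
Fold enrichment at the 1598 CDS-only regions called in all 4 lists, as the geometric mean of the GM lists (x axis, log scale) against that of the 3d DM lists (y axis, log scale), with the line of equal values and the named regions marked. Most regions lie along the line, and mt-Cytb lies farthest from it.

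The regions with the largest excess in GM are described by their values, since they were picked from this contrast and none passed the adjusted test. On mt-Cytb, the mitochondrial gene for cytochrome b, the fold was 75.2 and 138 in GM against 6.29 and 4.90 in 3d DM. The log2 difference was 4.20 ± 0.82 (SE, limma adjusted p = 0.532), the largest of the 1598. Its RNA level was 60004 and 27384 in GM against 50068 and 37531 in 3d DM, with overlapping states (limma adjusted p = 0.923). With the mean over all positions in the region, in place of the one with the lowest p, the log2 difference of mt-Cytb was 1.84. On mt-Nd4 both higher values were those of 3d DM. On mt-Co1 a region called in all 4 lists had folds of only 1.82, 1.30, 1.16 and 1.21, while another, called in GM replicate 1 alone, had 77. On mt-Co3 the fold was 26 in GM replicate 1 against 11.4 and 4.18 in 3d DM, with no region in GM replicate 2. The source of the high mitochondrial values was not tested.

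The other 4 were on nuclear genes. On Zfp408, a zinc finger gene, the fold was 14.9 and 26.6 in GM against 5.73 and 3.09 in 3d DM. On Mief2, which encodes a receptor of the mitochondrial fission factor DRP1, it was 17.5 and 17.2 in GM against 3.93 and 3.53 in 3d DM, while its RNA was higher in 3d DM (log2 difference, GM minus 3d DM, -1.90 ± 0.48, limma adjusted p = 0.00093). That call was lost in 3 of the 4 fits that leave out 1 library, all but the one without GM replicate 1. The fold of Mief2 was higher in the state with less of its RNA. On Syt17, a synaptotagmin, the fold was 15.7 and 21.1 against 3.09 and 5.29, and on Ice1, part of the little elongation complex of snRNA transcription, 28.9 and 11.0 against 3.58 and 4.41. For Ice1 the mean over all positions gave a log2 difference of 1.24 in place of 2.17. The RNA of neither gene passed the test (limma adjusted p = 0.580 for Syt17 and 0.653 for Ice1).

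In the 5 regions with the largest excess in 3d DM, 3d DM replicate 2 had the highest value. On Mprip, a regulator of myosin phosphatase and RhoA, the fold was 4.74 and 4.54 in GM against 5.68 and 26.7 in 3d DM. On Camsap2, which binds microtubule minus ends, it was 4.75 and 3.24 against 5.68 and 18.4. On Odf2, a centriole appendage gene, it was 3.10 and 2.14 against 3.67 and 15.0. In each of them 3d DM replicate 1 lay closer to the GM values than to 3d DM replicate 2. On Mdc1, a scaffold of the DNA damage response, the fold was 5.41 and 3.52 against 8.11 and 16.7, and on Hspbap1 4.59 and 3.26 against 6.70 and 16.7. Without 3d DM replicate 2 the log2 difference was -0.89 for Mdc1, -0.79 for Hspbap1, -0.53 for Camsap2, -0.51 for Odf2 and -0.29 for Mprip. The log2 differences ran from -1.53 for Odf2 to -1.38 for Camsap2 (limma adjusted p = 0.999 for each of the 5), and that of Mprip was -0.12 with peaks of p at or below 1e-05 alone. The RNA of Mdc1 went the other way, at 532.9 and 526.8 in GM against 165.5 and 251.0 in 3d DM (limma adjusted p = 0.0191, lost with any library left out).

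Some genes carried many separate regions in all 4 lists. Most, 1111, had 1 such region, 153 had 2 and 27 had 3, while 4 genes had 6 or more. The largest numbers were on Dst (9 regions) and Macf1 (7), both spectraplakins that link actin and microtubules, and on Kmt2d (6), a histone H3 lysine 4 methyltransferase, and Tnrc18 (6). Bod1l, which protects replication forks, Bptf, the reader subunit of a nucleosome remodeller, Setd1a, a lysine 4 methyltransferase, and Spen, a large repressor that binds RNA, had 5 each.

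These genes had long coding sequences, and the part of their regions that lay in the longest exon varied. On Spen, 4 to 7 of the 5 to 8 regions of a list lay in exon 12 of 16, which is 8020 nt long and holds 73.4% of the CDS. On Kmt2d, 2 or 3 of the 11 to 13 regions of a list lay in its longest exon of 2952 nt, which holds 17.6% of the CDS. The fold at single regions of these genes was mostly moderate, as at the 6 regions of Kmt2d, where it ran from 3.93 to 20.6. The RNA levels of Kmt2d, Spen, Bod1l, Bptf, Setd1a and Tnrc18 did not pass the test between states (limma adjusted p from 0.559 to 0.978).

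Genes with long coding sequences and exons more often had a CDS-only peak. The share of genes with a peak that had a CDS-only one was 21.1% at a coding length under 500 nt, 40.7% from 500 nt, 64.5% from 1000 nt, 80.8% from 2000 nt and 90.1% from 4000 nt on. Counted per kb of CDS, regions were still more frequent in the last class (0.476 per kb) than in the first (0.251 per kb). A short CDS leaves little room for a peak that reaches no UTR, so the rule itself partly sets both orders. The median longest coding exon was 465 nt in genes with a CDS-only peak and 224 nt in the other genes with a peak. The share among tested genes, with or without a peak, also differed by RNA level, for CDS-only peaks as for peaks of any class. The tested genes were cut into 5 equal groups by mean input level, lowest first. The share with a CDS-only peak was 29.2%, 43.7%, 51.3%, 58.7% and 57.3%. The share with a peak of any class was 50.6%, 72.7%, 83.0%, 87.8% and 89.0%.

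The gene families differed widely, with 61.9% of all genes with a peak as the background. CDS-only peaks were found on all 26 kinesin genes, all 17 of the histone lysine methyltransferase group, all 10 myosin heavy chain genes, 32 of 33 protocadherins and 27 of 28 SWI/SNF and chromodomain remodellers. They were found on 292 of 322 C2H2 zinc finger genes (90.7%), 32 of 39 ubiquitin-specific peptidases, 15 of 19 collagens and 6 of 7 laminins. The zinc finger genes, most of which encode their array of fingers in 1 exon, had a median longest coding exon of 1367 nt, beside 309 nt over all genes. At the other end stood 46 of 132 solute carriers (34.8%), 16 of 64 mitochondrial ribosomal proteins (25%) and 14 of 66 cytosolic ribosomal proteins (21.2%). Their median longest coding exons were 308, 210 and 173 nt. Their median CDS was 1521, 603 and 475.5 nt. In the length classes of these medians, 64.5%, 40.7% and 21.1% of all genes with a peak had a CDS-only one. Kinesins (3339 nt), protocadherins (2796 nt) and remodellers (3865.5 nt) had medians in the 80.8% class. Myosin heavy chains (5824.5 nt) and methyltransferases (5151 nt) were in the 90.1% class, and zinc finger genes (1734 nt) in the 64.5% class. Solute carriers had a median CDS of 1521 nt, beside 1461 nt over all genes. Collagens, at 78.9%, had a median CDS of 4395 nt, in the 90.1% class, and a median longest coding exon of 288 nt. How far the order of the families follows length was not tested. Among the cytosolic ribosomal proteins a single gene had a CDS-only region in all 4 lists. Of all 11406 tested genes, 9.96% had more RNA in GM and 7.01% in 3d DM (limma, adjusted p under 0.05). Beside these shares, 11 of 26 kinesin genes were higher in GM and 1 in 3d DM, though 0 and 0 without 3d DM replicate 1, and 6 and 7 of 282 zinc finger genes passed in either direction. Of the 10 myosin heavy chain genes, 8 were higher in 3d DM and 0 in GM, also with each library left out. With 2 cpm asked in 3 libraries, which no state can meet alone, 4 of the 10 were tested and 2 of them were higher in 3d DM.

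In the zinc finger genes the ratio of DRACH density inside peaks to outside was 1.17 to 1.23, and in the other genes 1.10 to 1.13. Of the 4 pentamers compared in this way, AAACC had a ratio of 0.82 to 0.93 in zinc finger genes and of 1.08 to 1.23 in the other genes (not tested). In zinc finger genes it occurred 1.77 to 2.84 times per kb inside peaks and 2.17 to 3.07 times outside. In the other genes these densities were lower, at 1.19 to 1.31 and 1.06 to 1.10.

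The input libraries carried the marks of both states. Myh3, the embryonic myosin heavy chain, stood at 1068 and 273.0 in GM against 33485 and 51674 in 3d DM in the normalized table (limma, adjusted p = 5.63e-50), and Mki67, a marker of dividing cells, at 3586 and 3659 against 446.3 and 760.4 (limma, adjusted p = 1.42e-08). Both calls held with each library left out in turn. Myog and Mymk, which drive differentiation and fusion, and Ckm, muscle creatine kinase, rose in 3d DM (limma adjusted p from 4.48e-29 to 2.60e-20), and Myf5 fell (0.000118). Myod1, the determination factor present in both states, did not pass the test (0.921). The 3 that rose lost their calls without either 3d DM library, and Myf5 without 3d DM replicate 1. GM replicate 1 already held more of the late genes than GM replicate 2, as with Myog (1008 against 220.8).

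Of the 5669 genes with a CDS-only peak, 5478 were tested for expression. RNA was higher in GM for 530 (9.68%) and in 3d DM for 380 (6.94%), beside 9.96% and 7.01% of all 11406 tested genes (limma, adjusted p under 0.05). Genes with a CDS-only peak thus moved about as often as any tested gene. Median log2 differences, GM minus 3d DM, were 0.21 and 0.22, an offset common to all genes. Under median-of-ratios scaling, which takes that offset away, the counts were 642 and 705. Without 3d DM replicate 1 the main counts were 25 and 61, without 3d DM replicate 2 267 and 99, without GM replicate 1 270 and 284, and without GM replicate 2 219 and 178. Among the 1937 tested genes with a CDS-only peak in all 4 lists, 122 (6.30%) were higher in GM and 107 (5.52%) in 3d DM. In bulk samples, fewer cells of a kind and less RNA per cell cannot be told apart.

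Where a CDS-only region was called in 1 state alone, the RNA of its gene often differed in the same direction. Of 250 tested genes with a region in both GM lists and neither 3d DM list, 82 (32.8%) had more RNA in GM and 2 more in 3d DM, beside 9.96% and 7.01% of all genes. Of 163 genes with a region in both 3d DM lists alone, 81 (49.7%) had more RNA in 3d DM and 1 more in GM. The filter of 2 cpm in 2 libraries admits genes through 1 state alone. With 3 libraries asked, 72 in place of 82 and 52 in place of 81 were called. For the 655 regions in both replicate 1 lists alone, 41 of 588 genes (6.97%) were higher in GM and 13 (2.21%) in 3d DM. The input libraries served both for the peak calls and for these RNA levels, and how far a peak's absence reflects few input reads was not tested. The count of 82 fell to between 5 (without 3d DM replicate 1) and 51 with each library left out in turn, and that of 81 was 25 without 3d DM replicate 1, 33 without 3d DM replicate 2 and 52 without GM replicate 2.

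The genes with such regions and no peak of any kind in the other state numbered 76 for GM and 62 for 3d DM, beside 129 for the replicate 1 lists alone. In GM, Amigo2, an adhesion molecule, had folds of 14 and 12.5, and its RNA was at 80.9 and 81.3 in GM against 11.4 and 12.4. Palb2, the partner of BRCA2 in DNA repair, had folds of 20.1 and 11.0 with RNA at 28.1 and 70.2 in GM against 12.5 and 11.6. Both genes passed the expression filter, at 25.1 in this table, through the GM libraries alone, so no test of their RNA is given. Fbxl7, an F-box gene, had 14 and 13.3, and its RNA did not pass the test (limma, adjusted p = 0.280). Ifi203, an interferon-induced gene, had 11.4 and 10.2 (limma, adjusted p = 0.0199 for its RNA, higher in GM). The call of Ifi203 held in only 1 of the 4 fits that leave out a library, the one without GM replicate 2.

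In 3d DM, Prg4, which encodes the joint lubricant lubricin, had folds of 15.9 and 14.2, with RNA at 7.38 and 5.02 in GM against 29.7 and 44.5 in 3d DM. Pcdhb20, a clustered protocadherin whose CDS is a single exon of 2400 nt, had folds of 13.1 and 13.4 and RNA at 23.3 and 8.04 against 44.4 and 93.0. Both genes passed the expression filter through the 3d DM libraries alone, so no test of their RNA is given. Cdkl3, a kinase gene, had folds of 10.6 and 9.19, and RNA at 46.2 and 43.2 against 39.4 and 41.9, which did not pass the test (limma, adjusted p = 0.927). Gal3st4, a sulfotransferase gene, had 9.52 and 10.9 and was below the expression filter, with no value over 5.01.

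Some genes of the giant muscle and cytoskeletal list differed between states in the number of regions, and others did not. On Ttn, titin, the spring of the sarcomere, CDS-only regions numbered 3 and 11 in GM against 57 and 31 in 3d DM, of 65 in all. Its RNA level was 4063 and 621.2 in GM against 17216 and 14642 in 3d DM (limma, adjusted p = 2.16e-14, lost without either 3d DM library). On Neb, nebulin, the ruler of the thin filament, regions numbered 1 and 1 in GM against 19 and 15 in 3d DM, with RNA at 508.4 and 102.4 against 8022 and 7411 (limma, adjusted p = 1.17e-30, lost without 3d DM replicate 1). Both GM lists lay below both 3d DM lists for either gene, in regions and in RNA.

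Most titin regions lay outside its longest exon, which still held more than its share of the CDS in 3 of the 4 lists (not tested). Exon 309 of 347, of 17106 nt, makes up 16.2% of the CDS. It held 0 of the 3 regions of GM replicate 1, 4 of the 11 of GM replicate 2, 15 of the 57 of 3d DM replicate 1 (26.3%) and 9 of the 31 of replicate 2 (29%). In the 3 Ttn regions called in all 4 lists the fold was not higher in both 3d DM lists than in both GM lists. At the one with the highest value it was 16.6 and 6.06 in GM against 7.26 and 5.22 in 3d DM. The single such region of Neb had 9.62 and 4.89 against 4.74 and 4.34. Ryr1, the calcium release channel, was chosen for naming after its values were seen, and had 0 and 1 regions in GM against 8 and 7 in 3d DM.

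Of the 11 genes of that list with a peak, all had a CDS-only one. Their median CDS was 21763.5 nt, and from 4000 nt on 90.1% of all genes with a peak had one. RNA was higher in 3d DM for 7 of the 11 and in GM for 1, Syne2, a nuclear envelope spectrin. Of all tested genes, 7.01% and 9.96% were called (limma, adjusted p under 0.05). Without 3d DM replicate 1 the counts were 2 and 0, and without 3d DM replicate 2 they were 4 and 1. Without GM replicate 1 they were 6 and 0. Dst and Macf1 had regions in like number in both states, 17 and 11 against 14 and 12 for Dst and 10 and 9 against 12 and 12 for Macf1. The states were not separated in region number on Syne2 (10 and 1 in GM against 1 and 0 in 3d DM) or Xirp2 (0 and 1 against 4 and 0). The RNA of Macf1 was higher in 3d DM by the test (log2 difference -1.13 ± 0.40, limma adjusted p = 0.0338), a call lost with any of the 4 libraries left out.

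Genes of mitosis and genome maintenance mostly went the other way in RNA, and some of them in the number of regions. All 10 of the list with a peak had a CDS-only one. Their median CDS was 7416 nt, and from 4000 nt on 90.1% of all genes with a peak had one. In RNA, 9 of the 10 were higher in GM (limma, adjusted p under 0.05), beside 9.96% of all tested genes. Without 3d DM replicate 1, 2 of the 10 were called, Cenpe and Mki67. Cenpe, the kinetochore kinesin, was the 1 gene with regions in all 4 lists. At the stronger of its 2 such regions the fold was 10.0 and 4.29 in GM against 5.82 and 15.0 in 3d DM, with overlapping states. At the weaker one Cenpe had 3.54 and 3.76 against 4.87 and 10.9, with both 3d DM values above both GM values. Its RNA stood at 1598 and 1612 in GM against 174.7 and 296.3 in 3d DM (limma, adjusted p = 5.88e-09, held with each library left out). On Aspm, a spindle pole gene, regions numbered 9 and 4 in GM against 3 and 0 in 3d DM, and on Knl1, a kinetochore scaffold, 8 and 4 against 2 and 0. These 2 genes were also chosen for naming after their values were seen. For both, the 2 GM lists held more regions than either 3d DM list. On Topbp1 they numbered 2 and 1 against 0 and 0. The states were not separated on Cenpe (3 and 2 against 2 and 2) or Cenpf (2 and 2 against 2 and 0). The same held for Brca1 (4 and 1 against 1 and 0) and Brca2 (6 and 1 against 1 and 0). Mki67 had 1 and 0 in either state, and Atm 0 and 0 against 1 and 0.

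**Figure D5:**
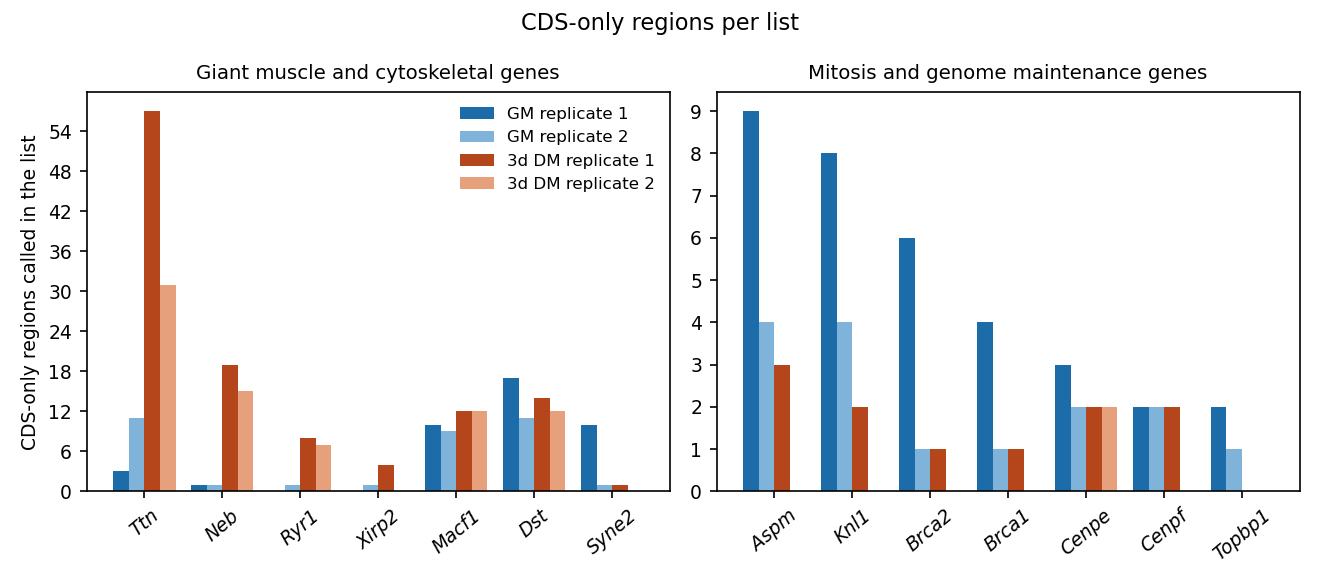
Number of CDS-only regions called in each list (y axis, from 0) on genes of the giant muscle and cytoskeletal list (left) and of the mitosis and genome maintenance list (right), with 1 bar per list. Ttn, Neb and Ryr1 have their highest bars in the 3d DM lists, Aspm and Knl1 mainly in the GM lists, and Macf1, Dst and Cenpe in all 4. Syne2 has its highest bar in GM replicate 1 and Xirp2 in 3d DM replicate 1.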

How the data were processed

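Reads were aligned to mm10 by the authors using HISAT2 (2.1.0), and exomePeak was run by them on every precipitated library with its own input. Each deposited peak list gives a p-value and a fold, the ratio of precipitated over input RNA, for every peak and transcript. The authors deposited expression as a normalized signal named for TMM and made with edgeR, and its columns have nearly equal totals. In the fit, standard errors followed the intensity trend, so p-values of expression say little of how far the replicates of a single gene lie apart. The lists give no read numbers and the depth is unknown, so no counting error is given.

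The members, gene lists and named genes were chosen with earlier results of these data known. Region labels were checked against GENCODE M21: 52014 of 54266 CDS-only lines (position and transcript) had their transcript there and all 52014 lay within its CDS. Motifs, exons and places were taken, per gene and list, from the transcript with the longest CDS. A list with several positions in a region gave the one with the lowest p. Regions in all 4 lists (6055) and expression, as log2(value + 1), of 11406 genes (2 cpm of the column total or more in 2 libraries or more) were tested with limma (3.58.1, R 4.3.3) with trend and Benjamini-Hochberg adjustment. In simulated expression data of 11406 genes, 148 of 200 planted log2 changes of 2 were called among 156 calls, and none of 200 log2 changes of 1. All tests are two-sided.

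Named were the 8 genes with most regions in all 4 lists, the 8 regions with the highest lowest fold, the 5 regions in each direction with the largest log2 difference and no overlap between states, 4 genes in each direction with regions in 1 state alone, members of 2 gene lists, and 7 state markers. Predicted genes with Gm or Rik symbols were passed over. 1 gene of the lists is not reported here. Of the gene lists, Ahnak and Incenp had CDS-only positions but no CDS-only region, since those merged with positions of another label, and 3 listed genes had no peak in the files used here. Python 3.11.15 was used with SciPy 1.17.1, NumPy 2.4.6, matplotlib 3.10.9 and pandas 2.3.3.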

Additional observations from a re-analysis of the deposited data

How the results depend on the processing

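With 2 lists a state no comparison of list values can pass a threshold of 0.05, so for these only the direction can be followed. Leaving out each library in turn, the difference in genes with a CDS-only peak (GM minus 3d DM, 146) ranged from -244 to 536 and that of the part of the CDS nearest the stop codon (-0.50 percentage points) from -2.49 to 1.5, with either sign. The fold of CDS-only against stop-spanning positions turned from -0.40 to 0.21, and against those touching the 5′ UTR from -0.21 to 0.029, at positions of 100 to 400 bases. With peaks of p at or below 1e-05, added after seeing the data for counts by list, regions in all 4 lists fell to 648, in both GM lists alone to 143, in both 3d DM lists alone to 121 and in both replicate 1 lists alone to 395, fewer regions being tested. Lists of the same number deviated together (Pearson's r of 0.17 over the CDS-only regions and 0.29 over expression), but the labels give no shared culture and 2 numbers cannot show pairing. With the replicate number as a block (replicate block), genes with a CDS-only peak higher in GM went from 530 to 332. The block left the 0 calls of fold and the differences of share (-2.46 percentage points) and genes (146) as they were. Genes higher in 3d DM went from 380 to 705 under median-of-ratios scaling. Restricted to genes with a CDS-only peak in all 4 lists, the counts were 122 and 107, fewer genes being counted. Of genes with regions in both 3d DM lists alone, 52 in place of 81 were higher in 3d DM with 2 cpm asked in 3 libraries; this was added after seeing the data. Leaving out 1 library gave 25 to 270 genes higher in GM and 61 to 284 higher in 3d DM, and 5 to 51 and 25 to 67 for genes with regions in 1 state alone. The cause was not tested. Calls by gene family under other settings were added after seeing the data. The median log2 difference of fold (0.12) ranged from -0.025, without GM replicate 1, to 0.25 with 1 library left out. The other summary counts stayed within 1.5 times of the main count and the other values within the spread between replicates, among them the motif ratio, the exon excess and the 0 calls of fold.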
